A study of Saccharomyces cerevisiae with 12 samples.

Results

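The proteasome is the protease that destroys proteins tagged with ubiquitin chains. Its 20S core is a barrel of stacked rings, with alpha subunits at the ends that gate the entrance and beta subunits in the middle, some of which carry the proteolytic sites. The 19S regulatory particle caps the barrel. Its base holds a ring of ATPases (Rpt proteins) that unfold substrates and thread them into the core, together with scaffold and ubiquitin-binding Rpn proteins, and its lid holds further Rpn proteins including the deubiquitinase Rpn11. In budding yeast the subunit genes are known to be transcribed together by the zinc finger activator Rpn4, which binds the proteasome-associated control element (PACE) in their promoters and is itself a very short-lived substrate of the proteasome, so that Rpn4 rises when proteolysis falls short.

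The genes described here are the 33 genes of a fixed list of proteasome genes, matched by gene symbol in every library, out of 7126 genes in the series. They are 14 genes of the 20S core (the alpha ring genes SCL1, PRE8, PRE9, PRE6, PUP2, PRE5 and PRE10, and the beta ring genes PRE3, PUP1, PUP3, PRE1, PRE2, PRE7 and PRE4), 10 genes of the 19S base (the ATPase genes RPT1 to RPT6, with RPN1, RPN2, RPN10 and RPN13), 8 genes of the lid (RPN3, RPN5, RPN6, RPN7, RPN8, RPN9, RPN11 and RPN12), and RPN4. All 33 were listed with a usable estimate in all 12 libraries and all 33 passed the filter on low values, with 6887 genes passing in all. Their positions equal those of the R64 annotation of the sacCer3 genome. Each gene has 1 coding exon except PRE3, which has 2, and RPT1 was the only one whose span overlaps another listed gene (by 93 bases).

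Transcripts were measured by RNA-seq of ribosomal RNA-depleted total RNA from the wild type haploid strain BY4741, which is of mating type a. The cells carried either of 2 plasmids: the empty pBY011 (control vector), or pBY011-YOX1 (YOX1 vector). The latter expresses YOX1, a homeodomain repressor of cell cycle genes, from the galactose-inducible GAL1-10 promoter. Cells were grown in synthetic medium without uracil and with raffinose as the carbon source. They were collected untreated (0 h) and at 2 h and 4 h after addition of galactose (2%) and hydroxyurea (HU, 200 mM), an inhibitor of ribonucleotide reductase that stalls DNA replication. Each of the 6 combinations of vector and time had 2 libraries, stated in the study's methods to be independent biological replicates, and p-values measure the spread between these libraries only. Galactose and HU were added together at both times, so that their effects, and that of time in culture, cannot be told apart. The design asked how the transcriptome under HU differs when YOX1 is overexpressed, and the same libraries give the response of the proteasome genes to the treatment with each vector.

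Values are FPKM (fragments normalized to transcript length and to library size), scaled between libraries by median ratios, so that a value is a level per transcript length. Changes are differences of log2(scaled FPKM + 1), tested with limma across all 6887 genes with Benjamini-Hochberg adjustment, and a gene was called higher or lower at an adjusted p under 0.05. The implied depth was 9660000 to 18060000 fragments per library, and the proteasome genes had an implied 573 (RPN13) to 11480 fragments (RPN1) each. The labels held in the data. YOX1 was at 2510 to 3794 scaled FPKM in the 4 induced YOX1 vector libraries against 28.96 to 43.7 in the 6 control vector libraries and 85.4 and 88.4 at 0 h with the YOX1 vector, so that cells with this plasmid already held more YOX1 transcript before galactose was added. GAL1 was at 4805 to 5928 in the 8 galactose libraries against 17.9 to 29.2 at 0 h, and HUG1, a gene induced by replication stress, was at 3469 to 6968 with HU against 32.1 to 44.8 without. The a-cell gene STE2 was at 106 to 252 and the alpha-cell pheromone receptor gene STE3 at 2.63 to 7.76 scaled FPKM. Of the other a-cell genes, MFA1 was at 168 to 1409, MFA2 at 179 to 6757, STE6 at 42.2 to 83.0 and BAR1 at 17.0 to 86.0. The alpha-cell genes MF(ALPHA)1, MF(ALPHA)2 and SAG1 were at 1.22 to 5.21, 9.19 to 22.1 and 12.2 to 18.1. The range of BAR1 thus met those of MF(ALPHA)2 and SAG1.

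The PACE letters GGTGGCAAA, the element read by Rpn4, were searched on both strands in the 300 bases upstream of the start codon. They were found in 27 of the 32 subunit genes (84.4%), against 1.22% of all 6005 protein-coding genes with a full window and 0.770% of the 5972 that are not on the list. Each of the 27 genes had 1 site. The sites lay 84 to 183 bases upstream of the start codon (median 120), 19 on the strand of the gene and 8 on the other. All 6 ATPase genes of the base carried the letters, as did 6 of 7 alpha ring genes, 6 of 7 beta ring genes and 7 of 8 lid genes. PRE5, PUP1, RPN8, RPN10, RPN13 and RPN4 had no match to these letters in this window. The sites of 10 genes whose values are described with the results are printed because these genes changed, each read from the RefSeq R64 genome in the direction of the gene, with the element in capitals. An element on the opposite strand reads TTTGCCACC.
PRE3, beta ring, chrX:435035-435063, plus strand: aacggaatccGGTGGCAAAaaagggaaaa
PUP3, beta ring, chrV:349511-349539, minus strand: tggcactgccGGTGGCAAAaaagtgcaaa
SCL1, alpha ring, chrVII:475337-475365, minus strand: cacacaccaaTTTGCCACCgtaaggatag
PRE2, beta ring, chrXVI:732184-732212, plus strand: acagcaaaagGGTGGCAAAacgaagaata
RPT4, base ATPase, chrXV:813802-813830, minus strand: aatagtggaaTTTGCCACCgaagggaaag
RPN1, base scaffold, chrVIII:164838-164866, minus strand: tgtgttttacGGTGGCAAAaggcgagcac
RPN2, base scaffold, chrIX:220801-220829, minus strand: atttattttcGGTGGCAAAactggataca
RPN3, lid, chrV:196843-196871, plus strand: acgaaaaacaTTTGCCACCcaagaaagag
RPN7, lid, chrXVI:742290-742318, plus strand: ataagttaagTTTGCCACCcattgaggat
RPN11, lid deubiquitinase, chrVI:153259-153287, plus strand: ggacctccaaGGTGGCAAAttcacaagaa

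**Figure D1:**
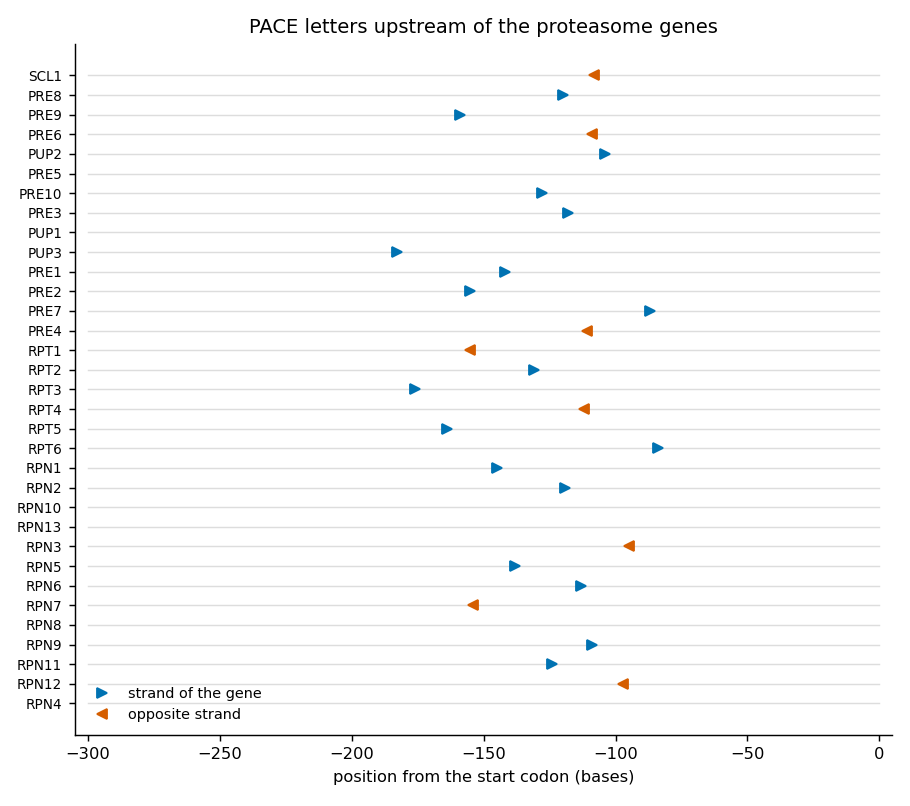
Position of the PACE letters in the 300 bases upstream of the start codon of each of the 33 proteasome genes (x axis, bases from the start codon, each gene a row). Right-pointing markers are sites on the strand of the gene and left-pointing markers sites on the opposite strand. The 27 sites fall between 84 and 183 bases upstream, and 6 genes have no site.

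Other letters were searched the same way on both strands. TAATTA, a core recognized by homeodomain proteins such as Yox1, was present in the 300 bases upstream of 6 of the 33 genes (18.2%), against 16.2% of all genes with a full window. TTACTAA, an element recognized by Yap1, was searched in 600 bases upstream because the known sites in the RPN4 promoter are distant. It was present at 6 of the 33 genes, against 13.7% of all genes. TCCGCGGA, recognized by Pdr1 and Pdr3, was found in the same window at 0 of 33 genes, against 0.749% of all genes. Only these exact letters were searched, so that sites with other letters, at RPN4 or elsewhere, would be missed. The Yap1 letters at RPN4 itself lay 374 bases upstream (chrIV:417065-417093, minus strand), printed because Yap1 is a known activator of RPN4, with the element in capitals.
RPN4 upstream element: cgtgatcgctaTTACTAAtagccgtttac

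The proteasome genes were expressed at closely similar levels. The mean over the 12 libraries ran from 132 (RPN9) to 307 scaled FPKM (PRE1) among the 32 subunit genes, a range of 2.33-fold. Within a library the standard deviation of their log2 levels was 0.27 to 0.37, against 2.13 to 2.27 over all 6887 genes. The 20S core genes had a median of 211 scaled FPKM, from 147 (PRE8) to 307 (PRE1). The base genes ran from 153 (RPN13) to 215 (RPT1), a range of 1.40-fold over 10 genes, and the lid genes from 132 (RPN9) to 211 (RPN5). RPN4, at 90.4 scaled FPKM, was the lowest of the 33. Genes whose products act with the proteasome without being among these subunits were more dispersed. The 17 genes of the list of assembly chaperones and associated factors ran from 23.9 (HSM3, a base chaperone) to 417 scaled FPKM (SEM1, a small lid protein), and the 20 genes of the list of ubiquitin conjugation and delivery from 16.1 (UBR2, the ubiquitin ligase of Rpn4) to 991 (UBC4, a ubiquitin-conjugating enzyme). UBC4 and its near-identical partner UBC5 can share reads, so that the division between them is uncertain.

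The levels also stayed close across vectors and times. The highest library was under 1.5 times the lowest for 32 of the 33 genes (97.0%), against 42.4% of all 6887 genes and 48.2% of the 1112 genes with means inside the range of the proteasome genes. The exception was PUP3, at 1.51. The median coefficient of variation over the 12 libraries was 6.62% for the proteasome genes and 13.3% for those 1112 genes. PRE7, a beta ring gene, had the lowest (2.76%) and PUP3 the highest (12.5%). As a set, the 32 subunit genes had a mean of 192.9 and 192.3 scaled FPKM in the 0 h control vector libraries, 188 and 182 at 2 h, and 207 and 199 at 4 h. The YOX1 vector means were 194 and 195 at 0 h, 187 and 181 at 2 h, and 199 and 195 at 4 h. The means were lowest at 2 h with both vectors. The libraries of the 2 vectors overlapped at 2 h, and at 4 h the nearest of them were at 198.9 and 198.7.

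**Figure D2:**
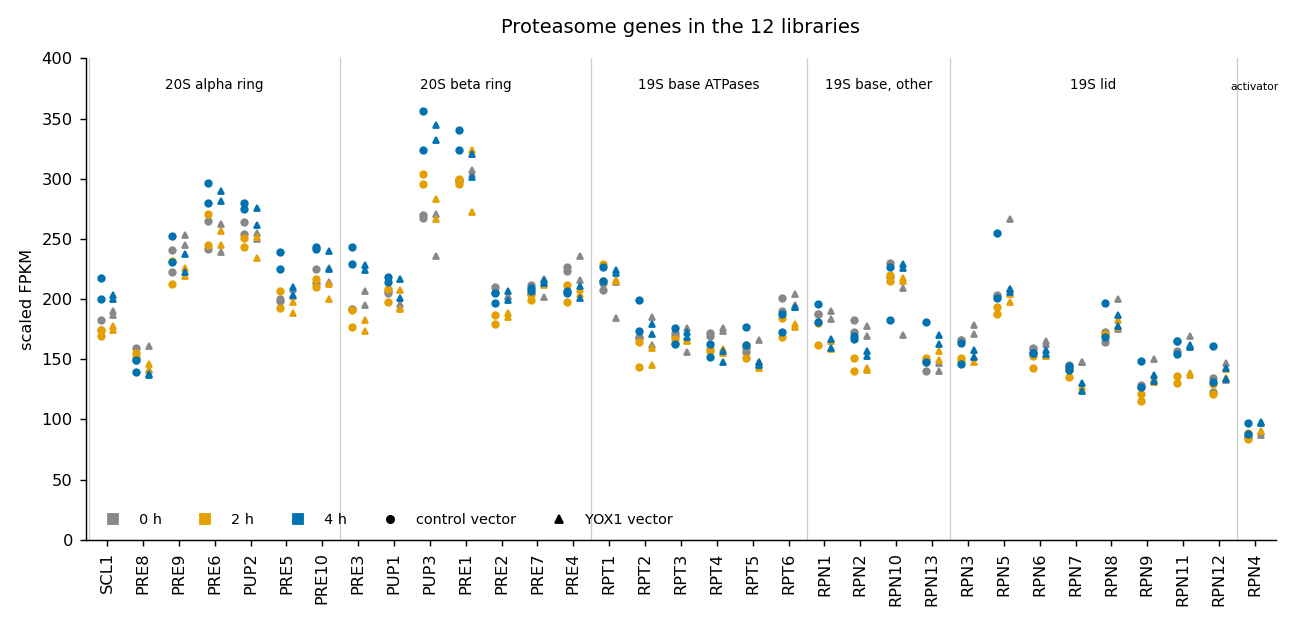
Scaled FPKM (y axis) of the 33 proteasome genes (x axis, grouped by role) in each of the 12 libraries, with circles for the control vector, triangles for the YOX1 vector and colors for the time. The subunit genes sit between 116 and 356 scaled FPKM, RPN4 between 83.3 and 97.4, and the 4 h libraries of PUP3 and PRE3 lie above the others.

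The first comparison asked how the treatment changed the proteasome genes with the control vector. At 2 h, 0 of 33 genes were called higher and 3 were called lower, where 18.4% of all genes were called higher and 19.3% lower. The 3 that fell were PRE2, which encodes a catalytic beta subunit, RPN2, the scaffold of the base, and RPN11, the lid deubiquitinase. The median change over the 33 genes was -0.05, with 27 of the 33 below 0, and over all genes it was 0.00. Under both adjustments for GC content described further on (a correction in each library, or leaving out 2 libraries), 5 genes were called, PUP3 as higher (adjusted p 0.0382 and 0.0323) and RPN3 as a further gene lower. The correction widened the spread between these 2 h replicates, and their standard deviation of log2 differences over the 33 genes went from 0.076 to 0.099. PUP3 at 2 h was at 335 and 290 scaled FPKM after it, against 304 and 296 before. No proteasome gene reached a log2 change of 0.5 in either direction, against 21% of all genes.

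RPN2 was at 182 and 172 scaled FPKM at 0 h and at 151 and 140.3 at 2 h, and every 2 h library lay below both 0 h libraries. It fell by 0.28 on the log2 scale (SE 0.051, adjusted p 0.00343, limma, n = 2 per group). RPN11 was at 157 and 165 scaled FPKM at 0 h and at 130.2 and 136 at 2 h, again without overlap. It fell by 0.27 (SE 0.053, adjusted p 0.00509). PRE2 was at 206 and 209.9 at 0 h and at 179 and 187 at 2 h, and fell by 0.18 (SE 0.043, adjusted p 0.0118). The calls of RPN2 and RPN11 held in all 13 other settings tried, while that of PRE2 was lost without control vector 0 h replicate 2 or 2 h replicate 1 (adjusted p up to 0.0740).

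At 4 h with the control vector, 4 of 33 genes were called higher and 0 lower against the same 0 h libraries, where 25.1% of all genes were called higher and 26% lower. All 4 belong to the 20S core: SCL1 and PRE5 of the alpha ring, PRE3, which encodes a catalytic beta subunit, and PUP3, a beta subunit without catalytic activity. The median change was 0.12 over the 14 core genes, with 10 above 0, and -0.00 over the 18 genes of the 19S particle, with 9 above 0 and 0 called in either direction. The difference between the core and the 19S particle was not tested. Among the 19S genes RPN3 was called lower under both adjustments for GC content (adjusted p 0.0151 and 0.0148), and RPT4 without the 2 libraries (adjusted p 0.0364). No proteasome gene reached a log2 change of 0.5, against 31.1% of all genes.

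PUP3 was at 268 and 269.9 scaled FPKM at 0 h, 304 and 296 at 2 h, and 324 and 356 at 4 h, so that the 3 times did not overlap. At 4 h it was higher by 0.34 on the log2 scale (SE 0.076, adjusted p 0.00662), the largest change of the 33 genes. PRE3 was at 192 in both 0 h libraries, at 191 and 177 at 2 h, and at 243 and 229 at 4 h. Its rise at 4 h was 0.30 (SE 0.057, adjusted p 0.00304), with both 4 h libraries above the other 4. These calls of PUP3 and PRE3 held in all 13 other settings.

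SCL1 was at 183 and 174 scaled FPKM at 0 h, 169 and 175 at 2 h, and 218 and 199.9 at 4 h, with both 4 h libraries highest. It rose by 0.22 (SE 0.051, adjusted p 0.00713), a call that was lost without control vector 0 h replicate 2, without scaling and in the fit of these 4 libraries alone (adjusted p up to 0.181). PRE5 was at 198 and 200.3 at 0 h, 207 and 193 at 2 h, and 239 and 225 at 4 h. It rose by 0.22 (SE 0.053, adjusted p 0.0103), and this call was lost without control vector 0 h replicate 1, without 4 h replicate 1 and without scaling (adjusted p up to 0.220). At the other end of the alpha ring, PRE8 was at 159.6 and 149.5 at 0 h and at 139.7 and 149.4 at 4 h, so that the times met within 1 scaled FPKM, with a log2 difference of -0.10 (adjusted p 0.288). In the beta ring PRE4, which encodes a noncatalytic subunit, was at 223 and 227 at 0 h and 205 and 207 at 4 h (log2 difference -0.13, adjusted p 0.0868), which did not pass the test although the libraries did not overlap.

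Within the base, the ATPase gene with the largest positive change at 4 h was RPT2, at 167 and 168 scaled FPKM at 0 h and 199 and 173 at 4 h (log2 difference 0.15, SE 0.10, adjusted p 0.265). The one with the largest negative change was RPT6, at 201 and 189.7 at 0 h and 187 and 173 at 4 h (log2 difference -0.12). Neither passed the test. RPN13, a ubiquitin receptor, was at 139.8 and 149 at 0 h and at 181 and 147 at 4 h. RPN10, another ubiquitin receptor, was at 230.0 and 218 at 0 h and at 182 and 227 at 4 h, so that 1 of the 4 h libraries stood far below the other. In the lid, RPN12 was at 123 and 135 at 0 h and 161 and 131 at 4 h, and RPN3 was at 166 and 166 at 0 h and 163 and 146 at 4 h. The 4 h replicates of RPN13, RPN10, RPN12 and RPN3 differed more from each other than the group means did from 0 h.

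**Figure D3:**
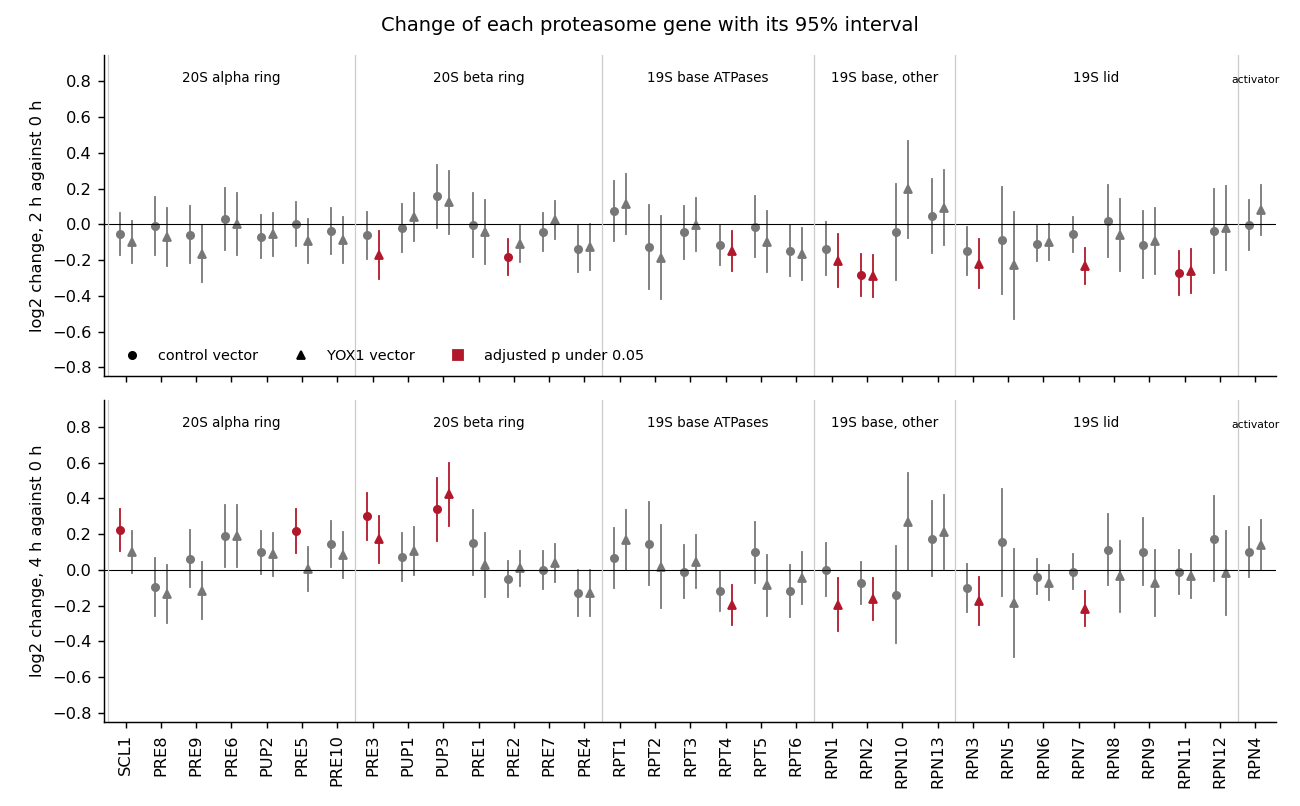
Log2 change of each of the 33 proteasome genes at 2 h (top) and 4 h (bottom) against 0 h (y axis), with circles for the control vector, triangles for the YOX1 vector, lines for the 95% interval of the limma fit and red for an adjusted p under 0.05. The changes lie between -0.29 and 0.42, the red points at 2 h are all below 0, and in this fit those at 4 h are above 0 in the 20S core and below 0 in the 19S base and lid.

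With the YOX1 vector, 0 of 33 genes were called higher and 7 were called lower at 2 h, where 21.6% of all genes were called higher and 22.2% lower. The 7 were PRE3, the ATPase gene RPT4, the base scaffold genes RPN1 and RPN2, and the lid genes RPN3, RPN7 and RPN11. The median change was -0.10. All 8 lid genes were below 0, in this fit and with the GC correction. Only 6 of 8 were below 0 without the 2 libraries that followed GC content, 1 of which is YOX1 vector 0 h replicate 1. No proteasome gene reached a log2 change of 0.5, against 25.7% of all genes. RPN2 was at 169.5 and 177 scaled FPKM at 0 h and at 143 and 141 at 2 h (log2 change -0.29, SE 0.051, adjusted p 0.00260). RPN11 was at 169 and 161 at 0 h and 138 and 137 at 2 h (log2 change -0.26, adjusted p 0.00509). RPN7, a structural subunit of the lid, was at 148 in both 0 h libraries and at 124 and 127 at 2 h (log2 change -0.23, SE 0.042, adjusted p 0.00306). In none of these 3 genes did the 2 times overlap, and their calls held in all 13 other settings. Both 2 h libraries lay below those of 0 h in 35.1% of all genes and above in 35.7%. Of the 33 genes, 17 lay below and 4 above. The calls of PRE3, RPT4, RPN1 and RPN3 were each lost in 4 or 5 settings, among them the fit without YOX1 vector 0 h replicate 1, the fits without each 2 h replicate, and the fit of these 4 libraries alone (adjusted p up to 0.204).

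At 4 h with the YOX1 vector, 2 of 33 genes were called higher (PRE3 and PUP3) and 5 lower (RPT4, RPN1, RPN2, RPN3 and RPN7), where 26.4% of all genes were called higher and 27% lower. In this fit the genes called higher were of the core and those called lower of the 19S particle. That division did not hold under either adjustment for GC content, where the core genes PRE8 and PRE4 were called lower and the 19S gene RPN13 was called higher (adjusted p 0.0134 to 0.0427). The median change was 0.06 over the 14 core genes and -0.06 over the 18 genes of the 19S particle. It was 0.01 and -0.07 with the GC correction, and 0.04 and -0.01 without the 2 libraries. The lid genes below 0 numbered 8 of 8, 7 of 8 with the GC correction, and 5 of 8 without the 2 libraries. No proteasome gene reached a log2 change of 0.5, against 33.2% of all genes. PUP3 was at 235 and 271 scaled FPKM at 0 h, 284 and 267 at 2 h, and 345 and 332 at 4 h, with both 4 h libraries highest (log2 change 0.42, SE 0.076, adjusted p 0.00212). The call was lost only with the GC correction described further on (adjusted p 0.0597). PRE3 was at 207 and 195 at 0 h, 183 and 174 at 2 h, and 228 and 224 at 4 h (log2 change 0.17, SE 0.057, adjusted p 0.0364), a call lost in 5 of 13 settings, among them leaving out 0 h replicate 2 or either 4 h replicate and omitting the scaling (adjusted p up to 0.474).

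RPN7 stayed at 129.9 and 124 scaled FPKM at 4 h with the YOX1 vector, below both 0 h libraries (log2 change -0.22, SE 0.042, adjusted p 0.00312), and this call held in all 13 settings. RPT4 was at 176 and 173 at 0 h and at 147 and 157 at 4 h (log2 change -0.20, adjusted p 0.00939), a call lost without 4 h replicate 1 and in the fit of these 4 libraries alone (adjusted p up to 0.0686). RPN1 was at 190.3 and 183 at 0 h and at 167 and 159 at 4 h, RPN2 at 157 and 153 at 4 h, and RPN3 at 158 and 152 at 4 h, all below their 0 h libraries. The calls of RPN1, RPN2 and RPN3 were lost in 4 or 5 of the 13 settings, among them the fits without either 4 h replicate (adjusted p up to 0.161). Without YOX1 vector 4 h replicate 1, 2 proteasome genes were called in place of 7, and without replicate 2, 3 were.

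From 2 h to 4 h all calls of proteasome genes were upward. With the control vector 5 of 33 genes were called higher (SCL1, PRE5, PRE3, RPN2 and RPN11) and 0 lower, where 9.64% of all genes were called higher and 8.61% lower. The median change was 0.13, with 29 of 33 genes above 0. With the YOX1 vector 4 of 33 were called higher (SCL1, PRE3, PUP3 and RPN11) and 0 lower, where 5.82% of all genes were called higher and 5.18% lower, with a median of 0.06 and 30 of 33 genes above 0. PRE3 had the largest of these changes with both vectors, 0.36 (SE 0.057, adjusted p 0.00562) with the control vector and 0.34 (SE 0.057, adjusted p 0.00984) with the YOX1 vector. RPN11 returned to 166 and 154 scaled FPKM with the control vector and to 162 and 160.0 with the YOX1 vector at 4 h, close to its 0 h libraries. These counts were the least stable. With the control vector, leaving out 4 h replicate 1 left 1 gene called and leaving out either 2 h replicate left 3. With the YOX1 vector, leaving out any 1 of the 4 libraries left 0 or 1.

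When the FPKM were used as deposited, the median change over the 6887 genes tested at 4 h was -0.11 with the control vector and -0.09 with the YOX1 vector, while at 2 h it was -0.02 with both. The median of the proteasome genes at 4 h then became -0.04 and -0.11, which is 0.07 above and 0.01 below that of all genes. On this scale 2 genes were called higher and 8 lower at 4 h with the control vector, and 1 higher and 9 lower with the YOX1 vector. The direction of the list as a whole at 4 h therefore depended on the scaling. Each of the 30 calls made with scaling kept its sign in all 13 other settings, and 8 of them were called in every one. Those calls were picked in the same libraries that the settings reuse, so that a kept sign says little. Without scaling the 4 h calls of SCL1 and PRE5 (control vector) and PRE3 (YOX1 vector) were lost, as were several from 2 h to 4 h.

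The mean over the 14 core genes and the mean over the 18 genes of the 19S particle are given here as a description, since their members were grouped by role and not tested as scores. The core mean was 222 and 221 scaled FPKM at 0 h, 219 and 215 at 2 h and 242 and 239.8 at 4 h with the control vector. In YOX1 vector cells it was 218 and 226 at 0 h, 218 and 209 at 2 h and 238 and 229 at 4 h. The 4 h libraries were the highest with each vector. The 19S mean was 170.3 and 170.2, then 164 and 157, then 179 and 167 with the control vector, and 176 and 171, then 163 and 159.97, then 168 and 169 with the YOX1 vector. The 2 h libraries were the lowest with each vector. The core mean was 1.30 to 1.32 times the 19S mean in 3 of the 0 h libraries. In YOX1 vector 0 h replicate 1 it was 1.24 times. The ratio was 1.31 to 1.37 at 2 h and 1.35 to 1.44 at 4 h, so that the 2 h values overlapped those of both other times. YOX1 vector 0 h replicate 1 and control vector 4 h replicate 1 followed GC content, as described further on. Their lid means were 178 and 174 scaled FPKM, against 145 to 162 in the other libraries. How far GC content moved the ratio was not tested.

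**Figure D4:**
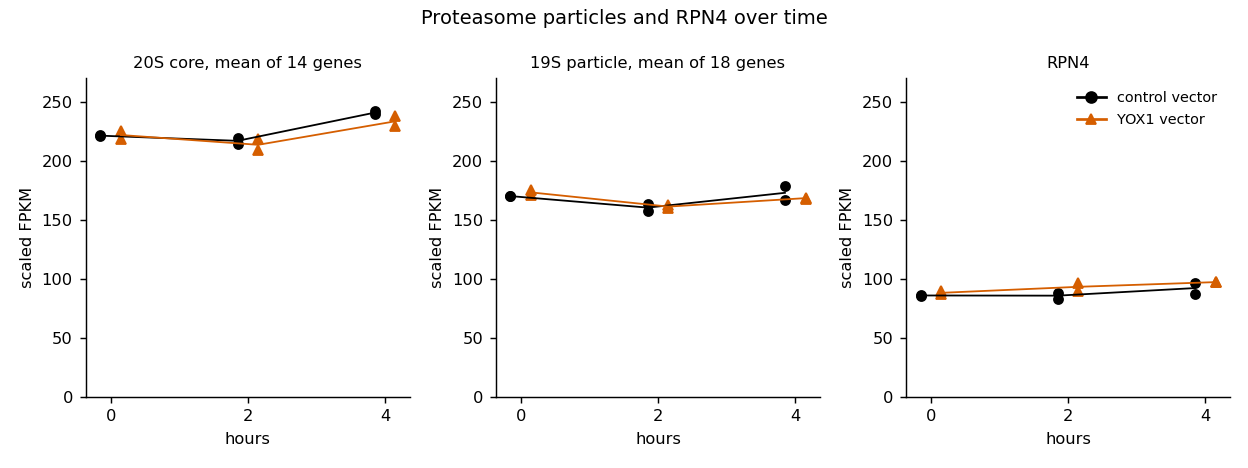
Mean scaled FPKM (y axis) of the 14 genes of the 20S core, of the 18 genes of the 19S particle, and the value of RPN4, by hours of treatment (x axis), with a point for each library and lines through the means of the 2 replicates. The core is highest at 4 h (229 to 242), the 19S particle is lowest at 2 h (157 to 164), and RPN4 stays between 83.3 and 97.4.

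The second comparison asked whether YOX1 overexpression altered the proteasome genes. Between the vectors, 0 of 33 genes were called at 0 h, at 2 h and at 4 h with limma, where 0.029%, 1.95% and 6.23% of all genes were called in either direction. At an unadjusted p under 0.05 there were 0, 1 and 5 proteasome genes. No proteasome gene reached a log2 difference of 0.5 at any time, against 5.52%, 7.43% and 9.16% of all genes. The differences ran from -0.25 to 0.22 at 0 h, from -0.14 to 0.16 at 2 h and from -0.21 to 0.16 at 4 h, and the 95% interval lay within 0.5 on either side of 0 for 31, 33 and 33 of the 33 genes.

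The proteasome gene nearest to a call between the vectors was RPN7 at 4 h, at 145 and 141 scaled FPKM with the control vector and 129.9 and 124 with the YOX1 vector. The libraries did not overlap, and the difference was -0.17 (SE 0.042, 95% interval -0.27 to -0.07, adjusted p 0.0586). At 2 h it was at 142 and 135 with the control vector and 124 and 127 with the YOX1 vector (log2 difference -0.14, adjusted p 0.214). RPN1, RPT5, PRE5 and RPN2 were the others with an unadjusted p under 0.05 at 4 h, and all had lower values with the YOX1 vector. RPN1, a scaffold of the base that also binds ubiquitin, was at 196 and 181 with the control vector and 167 and 159 with the YOX1 vector (log2 difference -0.21, adjusted p 0.117). With no filter on low values, and with the replicate number as a block, 1 proteasome gene was called at 4 h.

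The changes over time were also compared between the vectors. For the change at 2 h, the change at 4 h and the step from 2 h to 4 h, 0 of 33 genes were called with limma, where 0.741%, 2.48% and 0.0871% of all genes were called, and 1, 3 and 0 proteasome genes had an unadjusted p under 0.05. The genes called with one vector and not with the other, such as RPN7 at 2 h or SCL1 at 4 h, were therefore not shown to differ between the vectors. For the change at 4 h the median difference was -0.06, and the smallest adjusted p was that of RPN7 (0.158). The widest differences were those of RPN10 (0.41) and RPN5 (-0.34), which rest on the replicates described below.

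RPN4 itself was at 86.6 and 85.3 scaled FPKM at 0 h, 83.3 and 88.3 at 2 h and 96.8 and 87.6 at 4 h with the control vector. In the YOX1 vector libraries RPN4 was at 87.0 and 89.3 at 0 h, 96.6 and 89.97 at 2 h and 97.1 and 97.4 at 4 h. The control vector libraries of 0 h and 2 h overlapped, and the 4 h libraries of the YOX1 vector lay above their 0 h libraries. The change at 4 h was 0.10 with the control vector (SE 0.060, 95% interval -0.04 to 0.24, adjusted p 0.207) and 0.14 with the YOX1 vector (SE 0.060, 95% interval 0.00 to 0.28, adjusted p 0.0821). RPN4 was not called in any of the comparisons. The difference between vectors was 0.04 at 0 h, 0.12 at 2 h and 0.08 at 4 h (adjusted p 0.519 to 0.869). These values are of the transcript, and the amount of the Rpn4 protein was not measured here.

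The calls were also read by the presence of the PACE letters, as a description. At 4 h with the control vector 3 of the 27 genes with the letters and 1 of the 6 without (PRE5) were called higher. The median change was 0.06 with and 0.11 without the letters, against 0.06 for the 45 other genes tested that carry them, of which 15 were called higher and 11 lower. Of all genes, 25.1% were called higher and 26% lower in that comparison. At 2 h with the YOX1 vector all 7 genes called lower carried the letters, as do 27 of the 33 genes (81.8%). Of the 45 other carriers 8 were called higher and 9 lower there, with a median change of 0.00, where 21.6% of all genes were called higher and 22.2% lower. The changes of those 45 genes at 4 h with the control vector ran from -1.23 to 1.15, a wider range than that of the proteasome genes.

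In 2 groups the replicates of the proteasome genes differed more than in the others. The standard deviation over the 33 genes of the log2 difference between replicates was 0.14 at 0 h with the YOX1 vector and 0.14 at 4 h with the control vector, against 0.06 to 0.08 in the other 4 groups. RPN5, the largest case, was at 267 and 209 scaled FPKM in the first of these groups and 255 and 201 in the other, and between 188 and 209 in the other 8 libraries. RPN10 was at 169.8 and 209 and at 182 and 227, and between 215 and 230.0 elsewhere. In both groups replicate 1 had the high RPN5 and the low RPN10, and across the 33 genes the replicate differences of the 2 groups correlated (r = 0.88, n = 33 genes, which share their libraries).

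These differences followed the base composition of the genes. Across the 33 genes, whose GC content ran from 33.7% (RPN9) to 47.5% (RPN10), the difference between replicates correlated with GC content at r = -0.72 at 0 h with the YOX1 vector and r = -0.82 at 4 h with the control vector, and between -0.16 and 0.31 in the other groups. The 6 genes under 38% GC had a median difference of 0.15 and 0.22 in those 2 groups, and the 6 over 43% one of -0.11 and -0.06. The same direction was present over 880 other genes of like level, but the contrast depended on the measure. Spearman's rho with GC content was -0.58 and -0.50 in those 2 groups, against -0.08 to 0.12 in the other groups. Pearson's r, the measure used for the 33 genes, was -0.22 and -0.18. It was -0.19 at 2 h with the YOX1 vector, and -0.03 to 0.04 in the remaining groups. By Pearson's r the 2 groups thus did not stand apart from that one. Over a wider set of 6111 genes r was -0.13 and -0.03, with the lowest value, -0.18, at 2 h with the control vector. How the differences between replicates arose was not tested.

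**Figure D5:**
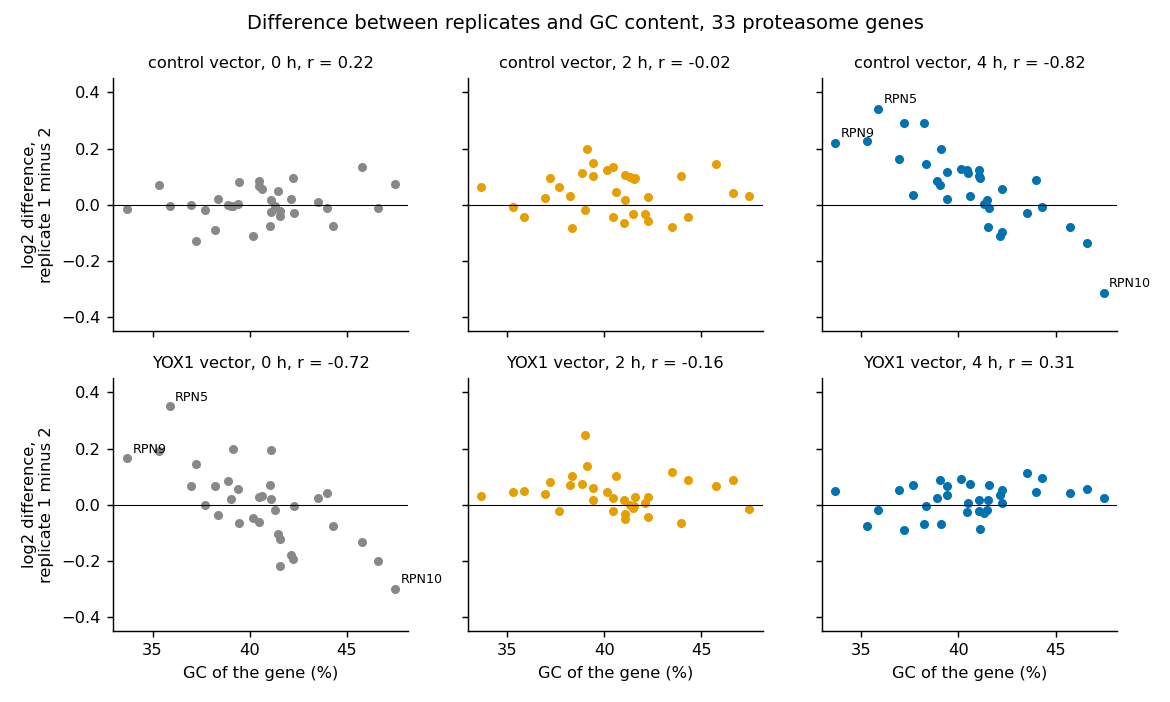
Log2 difference between replicate 1 and replicate 2 (y axis) against the GC content of the gene (x axis, percent) for the 33 proteasome genes, with a panel for each combination of vector and time and Pearson's r in its title. The slope is downward at 0 h with the YOX1 vector (r = -0.72) and at 4 h with the control vector (r = -0.82), and RPN5 and RPN10 lie at its ends.

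The main counts were therefore also read without those 2 libraries, chosen after the data were seen. At 2 h with the control vector 1 gene was then called higher (PUP3) and 4 lower. At 4 h with the control vector 3 genes were called higher (SCL1, PRE3 and PUP3) and 2 lower (RPT4 and RPN3), and the median change was 0.02 in place of 0.07. With the YOX1 vector at 4 h, 3 were called higher (PRE3, PUP3 and RPN13) and 6 lower (PRE8, PRE4, RPT4, RPN2, RPN3 and RPN7), and at 2 h 0 higher and 6 lower (PRE8, PRE4, RPN2, RPN3, RPN7 and RPN11). From 2 h to 4 h with the control vector 3 were called higher in place of 5. Between the vectors 0 were called at 0 h and at 4 h. With a correction for GC content in each library, 1 gene was called higher (PUP3) and 4 lower at 2 h with the control vector. At 4 h, 6 were called higher, all of the core, and 1 lower (RPN3) with the control vector, and 2 higher (PRE3 and RPN13) and 7 lower with the YOX1 vector.

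The same 6887-gene fit gave the values of genes that act around the proteasome, whose shares of calls are read against the background shares given above and were not tested against those of the subunit genes. Of the 17 genes for assembly and associated factors, 8 were called higher and 3 lower at 4 h with the control vector, and 7 higher and 2 lower with the YOX1 vector. The largest rise with the control vector was that of SPG5, a proteasome regulator known from stationary phase, which went from 69.1 and 72.7 scaled FPKM to 96.0 and 94.2 (log2 change 0.42, SE 0.055, adjusted p 0.000455). The 2 times did not overlap, a gap in the same direction that 36.9% of all genes also had. UMP1, the chaperone of core maturation, went from 228 and 240.4 to 294 and 327 (log2 change 0.40, adjusted p 0.00616), and IRC25, a chaperone of alpha ring assembly, rose by 0.35. The largest fall was that of TMA17, an assembly chaperone of the base known to be induced by stress, from 243 and 248 to 195 and 188 scaled FPKM (log2 change -0.36, SE 0.073, adjusted p 0.00414). At 2 h with the control vector TMA17 was at 182 and 193. In the YOX1 vector libraries it was at 242 and 280 at 0 h, 171 and 172 at 2 h, and 206 and 220 at 4 h. Its 2 h fall with this vector was 0.60 (adjusted p 0.000420). None of the 17 genes passed the test for a different 2 h or 4 h change between the vectors.

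Of the 20 genes for ubiquitin and delivery, 11 were called higher and 2 lower at 4 h with each vector. The polyubiquitin gene UBI4 had the largest rise with the control vector, from 363 and 353 scaled FPKM at 0 h to 489 and 499 at 2 h and 762 and 699 at 4 h, without overlap between times (log2 change at 4 h 1.03, SE 0.054, adjusted p 4.32e-06). The YOX1 vector libraries went from 401 and 386 to 653 and 629 at 4 h (log2 change 0.70, adjusted p 2.68e-05). Its repeated ubiquitin units are shared with other ubiquitin genes, so that its level is uncertain. The largest fall was that of SHP1, a cofactor of the Cdc48 ATPase, from 149.9 and 138 to 126 and 117 scaled FPKM (log2 change -0.24, SE 0.062, adjusted p 0.0123).

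CDC48, the ATPase that extracts ubiquitinated proteins and passes them to the proteasome, was the only one of these listed genes called between the vectors. At 4 h it was at 587 and 571 scaled FPKM with the control vector and at 487 and 488 with the YOX1 vector, a difference of -0.25 (SE 0.052, adjusted p 0.0329). Its libraries did not overlap, and 24.2% of all genes were likewise lower in both YOX1 vector libraries. The call of CDC48 held in 7 of 13 other settings. It was lost without any 1 of the 4 libraries compared, in the fit of those 4 alone and without scaling (adjusted p up to 0.167).

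Of the 4 genes for known activators of RPN4 transcription, YAP1 and PDR1 were called higher at 4 h with the control vector, and YAP1, PDR1 and PDR3 with the YOX1 vector. YAP1, an activator of the oxidative stress response, had the largest change with the control vector, from 73.3 and 76.2 scaled FPKM at 0 h to 109 and 101 at 4 h (log2 change 0.48, SE 0.067, adjusted p 0.000607). PDR1, a zinc finger activator of drug resistance genes, went from 37.1 and 36.5 to 46.7 and 46.0 (log2 change 0.33, adjusted p 0.000521). HSF1, the heat shock factor, was at 39.0 and 40.0 scaled FPKM at 0 h and at 42.2 and 41.6 at 4 h (log2 difference 0.08, adjusted p 0.345). No gene of this list was called lower at 4 h with either vector.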

How the data were processed

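Total RNA was depleted of ribosomal RNA and made into libraries with a kit that does not mark strand. The submitters' processing notes name TopHat2, Cufflinks and Cuffdiff with the sacCer3 genome, and the authors deposited 1 Cufflinks table of FPKM per library, with 7126 genes and no counts. Depth was therefore inferred from the deposited confidence intervals. FPKM were divided by median-ratio factors over 6585 genes (0.932 to 1.07) and transformed as log2(FPKM + 1), which slightly understates changes. Genes whose mean reached 1 FPKM were tested with limma 3.58.1 in 1 model of 6 group means (variance trend, 2-sided, Benjamini-Hochberg adjustment, 6 residual degrees of freedom), since the deposited unit allows no count test. Replicate numbers were not used as pairs. In simulated data for 4 h against 0 h (control vector, 6887 genes, 200 of them changed), 0% of changes of 0.25 were recovered, 63.5% of 0.5 and 90% of 1, under a stricter adjustment than in the data, where more genes changed. Members and gene lists were chosen with earlier results of these data known. Genes with values in every library were RPN4, the members with the highest and lowest change of each role at 4 h with the control vector, and called members. RPN5, RPN7 and RPN1 between vectors, UMP1, IRC25, PDR1, PDR3 and HSF1 were added after their values were seen. Promoter letters were read from R64, of which 6036 of 6048 matched identifiers had equal coordinates.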

Additional observations from a re-analysis of the deposited data

How the results depend on the processing

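Of 451 alternative values of 32 results, 407 were labelled the same as the main value, and the causes of the others were not tested. A count was the same within 1.5 times, whichever genes it held. A median change was the same within 0.0422 on the log2 scale, the spread between replicates, whatever its sign. The YOX1 vector 4 h median thus counted as the same at 0.0063 and, with the GC correction, at -0.0286. A change of RPN4 was the same if its sign and call were kept, whatever its size. The numbers of proteasome genes called under the GC correction were 5 (control vector, 2 h), 7 (control vector, 4 h) and 1 (YOX1 vector, 2 h to 4 h), an alternative chosen after seeing the data. With only the libraries compared in the fit they were 5 (control vector, 2 h), 3 (YOX1 vector, 2 h), 2 (YOX1 vector, 4 h), and 0 from 2 h to 4 h with each vector. Without scaling they were 10 (control vector, 4 h), 1 (control vector, 2 h to 4 h) and 2 (YOX1 vector, 2 h to 4 h), and the median changes were -0.0436 (control vector, 4 h), -0.1056 (YOX1 vector, 4 h), 0.0341 (control vector, 2 h to 4 h), -0.0252 (YOX1 vector, 2 h to 4 h) and -0.0039 (between vectors, 4 h), with RPN4 at -0.0165 (control vector, 4 h). With no filter on low values they were 8 (control vector, 2 h to 4 h) and 1 (between vectors, 4 h), and without the variance trend 2 (YOX1 vector, 2 h to 4 h). Replicate numbers were not taken as pairs, since 4 of 15 pairs of groups had a correlation of deviations over 0.1 (range -0.15 to 0.55). The highest were 0.55 between 2 h and 4 h with the YOX1 vector and 0.49 between the vectors at 4 h, so that libraries of these groups with the same number deviated together. With the replicate number as a block the counts were 2 (YOX1 vector, 2 h to 4 h) and 1 (between vectors, 4 h), and no other count moved by over 1.5 times. Without the 2 libraries that followed GC content 5 genes were called at 2 h with the control vector in place of 3, and the control vector median was 0.0178 at 4 h and 0.073 from 2 h to 4 h, with 3 called for the latter.

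With 1 library left out, the counts ran from 3 to 8 (YOX1 vector, 2 h), 2 to 8 (YOX1 vector, 4 h), 1 to 6 (control vector, 2 h to 4 h) and 0 to 1 (YOX1 vector, 2 h to 4 h). The median change ran from 0.0178 to 0.112 (control vector, 4 h), from 0.073 to 0.1749 (control vector, 2 h to 4 h), from -0.0398 to 0.0219 (2 h change, YOX1 minus control vector) and from -0.0812 to 0.00 (step from 2 h to 4 h, YOX1 minus control vector). The change of RPN4 at 2 h with the control vector ran from -0.0446 to 0.0383, with 0.0076 without 0 h replicate 1. Both PACE searches, with 9 and with the 8 letters GGTGGCAA, found 27 genes. The SE of a change was 0.042 to 0.13 over the 33 genes, which limits what 2 libraries per group could detect.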
